A study of Nannochloropsis oceanica with 6 samples.

Results

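The models of Nannochloropsis oceanica described here are those of inorganic ion transport and metabolism. They were taken from the gene table of the strain CCMP1779, a unicellular marine alga of the stramenopile lineage, as the models that KOG, a catalogue of eukaryotic orthologous groups, places in its inorganic ion class. Of 10641 gene models, 147 belong to this class. A model was kept when its mean over all libraries was at least 1 FPKM (a fragment count corrected for transcript length and library size), and when its description named no nitrate or nitrite enzyme, superoxide dismutase, catalase, carbonic anhydrase, ferredoxin or chaperon. The words removed 9 models and the minimum a further 12, which left 126 members. Messenger RNA had been sequenced from 6 libraries, 2 for each of 3 treatments. All cultures grew at 22 °C in 12 h of light at 30 µmol s−1 m−2 and 12 h of dark, went into darkness at zeitgeber time 12 and stayed there for 36 h. The dark group then received no light, the blue group 5 min of blue light and the red group 5 min of red light, each at 20 µmol s−1 m−2, and 15 min of darkness followed in every group. Replicates carry numbers, yet nothing says that they were separate cultures; every p-value below therefore reflects library-to-library spread that could be technical alone.

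Ions cross membranes through several kinds of protein. Pumps such as the P-type ATPases spend ATP to build gradients, exchangers and symporters spend those gradients to move other ions, and channels let ions run down them. Sulfate, phosphate and ammonium enter an alga this way as nutrients, metals enter as cofactors, and potassium and calcium channels shape membrane voltage and signalling. Sulfate is activated by ATP sulfurylase before it is reduced, and bicarbonate transporters supply inorganic carbon for photosynthesis.

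The KOG class is broader than its name. By their descriptions, 15 of the 126 members are proteins of another kind, among them 3 aureochromes, which entered through the PAS domain that they share with a potassium channel group. The remaining 111 members are mostly ion channels, transporters and pumps, with a few enzymes, cofactor assembly proteins and regulators. The coordinates of 55 members overlap those of another model, and whether counting used strand is not stated in the sources at hand, so their values are uncertain; these models are marked as overlapping below. The lipid droplet surface protein, a protein typical of Nannochloropsis oil bodies, was present in every library, at 92.2 FPKM or more, as were the 26 light harvesting models, which summed to between 6060.3 and 7940.1 FPKM. The libraries differed in their FPKM sums, from 588091.6 in a red to 767746.9 in a dark library, and the members held between 1.10% and 1.52% of the sum. Total counts are not in the files, and by the steps between low values the pulsed libraries had from 1.196 to 1.69 times as many fragments behind 1 FPKM as dark replicate 1. Member means ran from 1.07 to 568.4 FPKM with a median of 26.2 FPKM, close to the 27.0 FPKM of all tested models. Just inside the minimum lay the zinc transporter 672670 at a mean of 1.066 FPKM and the cysteine-rich model 442831 at 1.11 FPKM, and just outside it a sodium/hydrogen exchanger, 507228, at 0.837 FPKM and the cysteine-rich model 23993 at 0.589 FPKM.

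After the blue pulse 52 members rose and 43 fell (limma on log2(FPKM + 1), Benjamini-Hochberg adjusted p under 0.05 over 9087 tested models). Over all tested models 76.1% were called in this comparison, 39.9% higher and 36.2% lower, and the members' shares of 41.3% and 34.1% lay near these. After the red pulse 55 members rose and 36 fell, or 43.7% and 28.6%, beside 33.7% higher and 29.5% lower of all models (63.3% called either way). Blue and red were also compared directly, where 38 members were higher in blue and 27 lower, beside 27% and 23.7% of all models (50.7% called either way). The median log2 change of the members was 0.04 after blue and 0.14 after red light, against 0.05 and 0.04 for all models. Sizes were counted on the log2(FPKM + 1) scale, on which a model can pass a 2-fold ratio of group means and still miss the cut. Changes of at least 2-fold on this scale were called for 20 rises and 17 falls after blue light and for 6 rises and 8 falls after red light. These were 15.9% and 13.5% of the members after blue light, beside 15.8% and 12.6% of all tested models, and 4.76% and 6.35% after red light, beside 6.22% and 5.92%, so the members' shares lay near those of all models. The dark libraries enter both comparisons with dark, so these counts are not independent of each other.

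The balance of rises and falls followed the scaling of the libraries. On TPM, the same values rescaled to a common sum, the median of all models moved to 0.27 after blue and 0.36 after red light, and the members split into 66 higher and 28 lower after blue and 78 higher and 26 lower after red light. Median centring moved the 2 medians to −0.22 and −0.12 and gave 37 higher and 63 lower members after blue and 38 and 49 after red light. Quantile normalization gave 47 and 50 after blue light. In blue against red the main split of 38 higher and 27 lower became 30 and 32 on TPM, 32 and 31 under quantile normalization, and 30 and 35 under median centring. No member called on FPKM was called in the opposite direction under any of these scalings. The RNA is that of a whole culture, in which fewer cells that hold a transcript and less of it per cell cannot be told apart.

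**Figure D1:**
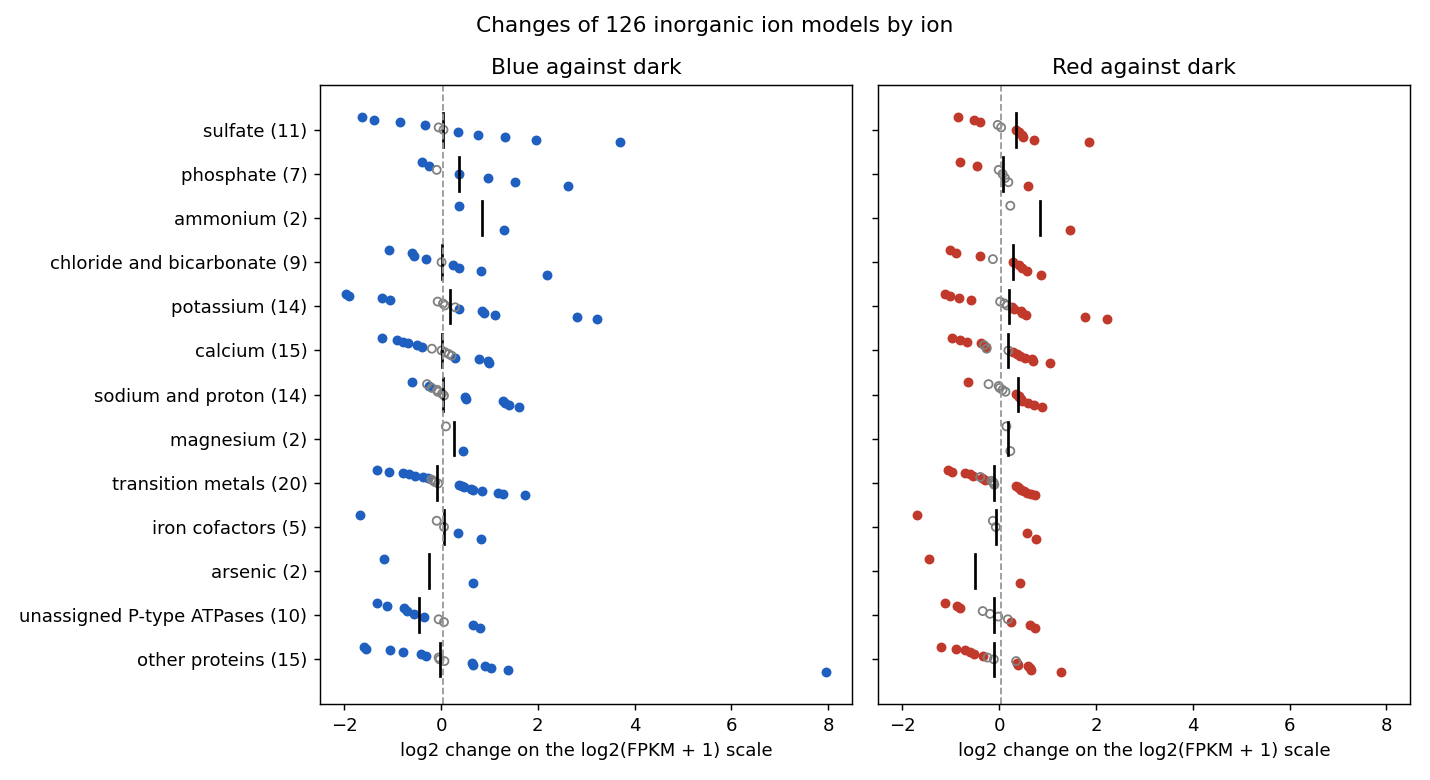
Log2 change of each of the 126 members on the log2(FPKM + 1) scale, in blue against dark (left) and red against dark (right), by ion, with the number of members in parentheses. Filled points passed the threshold, open points did not, black bars are group medians and dashed lines the medians of all tested models (0.05 and 0.04); most groups hold rises and falls side by side, and the rightmost point, at 7.95 after blue light, is an aureochrome.

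Sulfate uptake and activation held the largest rise of any member that handles an ion. ATP sulfurylase (590408; scaffold 11, 639900 to 641698), which joins sulfate to ATP as the entry step of its assimilation, stood at 4.30 and 5.08 FPKM in dark, 74.0 and 70.4 FPKM in blue and 18.2 and 20.8 FPKM in red libraries. The groups did not overlap, and the transcript was higher in blue than in red and higher in red than in dark libraries. As a ratio of group means it rose 15.4-fold after blue light (log2 change 3.69, SE 0.11, adjusted p = 1.03e-08) and 4.16-fold after red light (log2 change 1.85, SE 0.11, adjusted p = 1.78e-06), and the blue level exceeded the red one (log2 difference 1.84, SE 0.11, adjusted p = 1.57e-06). Models 600410 and 593348, left out of the members by their descriptions, are annotated as ferredoxin-dependent sulfite or nitrite reductases. Whether they act on sulfite was not tested. Model 600410 stood at 12.8 and 13.4 FPKM in dark, 285 and 258 FPKM in blue and 77.5 and 89.5 FPKM in red libraries. The more abundant 593348 stood at 402.4 and 402.9 FPKM in dark, 671 and 665.3 FPKM in blue and 485.6 and 577.4 FPKM in red libraries. It rose 1.66-fold after blue light.

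The 10 transporters of the SLC26 family, which carry sulfate and other anions, did not move as a block. After blue light 4 rose and 4 fell (40% each, beside 39.9% and 36.2% of all tested models), with a median log2 change near 0. The split was 6 and 3 on TPM, 3 and 5 under quantile normalization and 3 and 6 under median centring. SLC26 transporter 599174 (overlapping) was at 3.33 and 3.55 FPKM in dark, 15.0 and 17.7 FPKM in blue and 6.08 and 6.57 FPKM in red libraries, and 634099 at 2.26 and 2.08 FPKM in dark, 6.70 and 7.22 FPKM in blue and 3.17 and 2.91 FPKM in red libraries. Both rose after blue light (log2 changes 1.97 and 1.33), and both were higher in blue than in red libraries (log2 differences 1.24 and 0.98). The red rise of 599174 was 0.72, while that of 634099, 0.35, lost its call with median centring and without any 1 of the dark or red libraries.

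An adjacent pair on scaffold 6 ran in the opposite direction after blue light. SLC26 models 581983 (207947 to 209764) and 628833 (209746 to 211053) lie on the same strand and overlap by 19 bases. The first was at 13.0 and 12.5 FPKM in dark, 4.61 and 4.02 FPKM in blue and 17.1 and 19.1 FPKM in red libraries, the second at 13.0 and 15.4 FPKM in dark, 4.81 and 3.17 FPKM in blue and 19.5 and 19.0 FPKM in red libraries. In both models the blue libraries were the lowest and the red libraries the highest, with no overlap between groups. Both fell after blue light (log2 change −1.38, SE 0.11, adjusted p = 3.29e-06, and log2 change −1.63, SE 0.16, adjusted p = 1.21e-05), and the difference between blue and red was −1.85 for the first and −2.04 for the second (adjusted p = 1.62e-06 and 8.66e-06). Their rises above dark after red light were small, at 0.47 and 0.41, and neither was called with quantile normalization. That of 628833 also lost its call with median centring, a pseudocount of 0.1, no filter or no trend, and without dark replicate 1 or either red library. Whether the models are 1 gene was not tested.

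The 2 most abundant SLC26 transporters were lowest in red libraries. Model 670321, at 102 and 97.2 FPKM in dark, 76.1 and 80.9 FPKM in blue and 51.8 and 56.8 FPKM in red libraries, fell after red light (log2 change −0.86, SE 0.09, adjusted p = 3.03e-05); its blue change of −0.34 was not called on TPM or without dark replicate 1. Model 62465 was at 122 and 118 FPKM in dark, 114 and 118 FPKM in blue and 88.4 and 92.9 FPKM in red libraries, and its red level was the lowest, with a log2 change of −0.40 that was not called on TPM. Of the rest, 552783 (overlapping) rose after blue light (0.77), 606409 (overlapping) fell (−0.84), and 611338 rose by 0.34, a call lost with quantile normalization and median centring. Model 591295 lay between 22.3 and 23.6 FPKM in all libraries and was not called in any comparison.

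**Figure D2:**
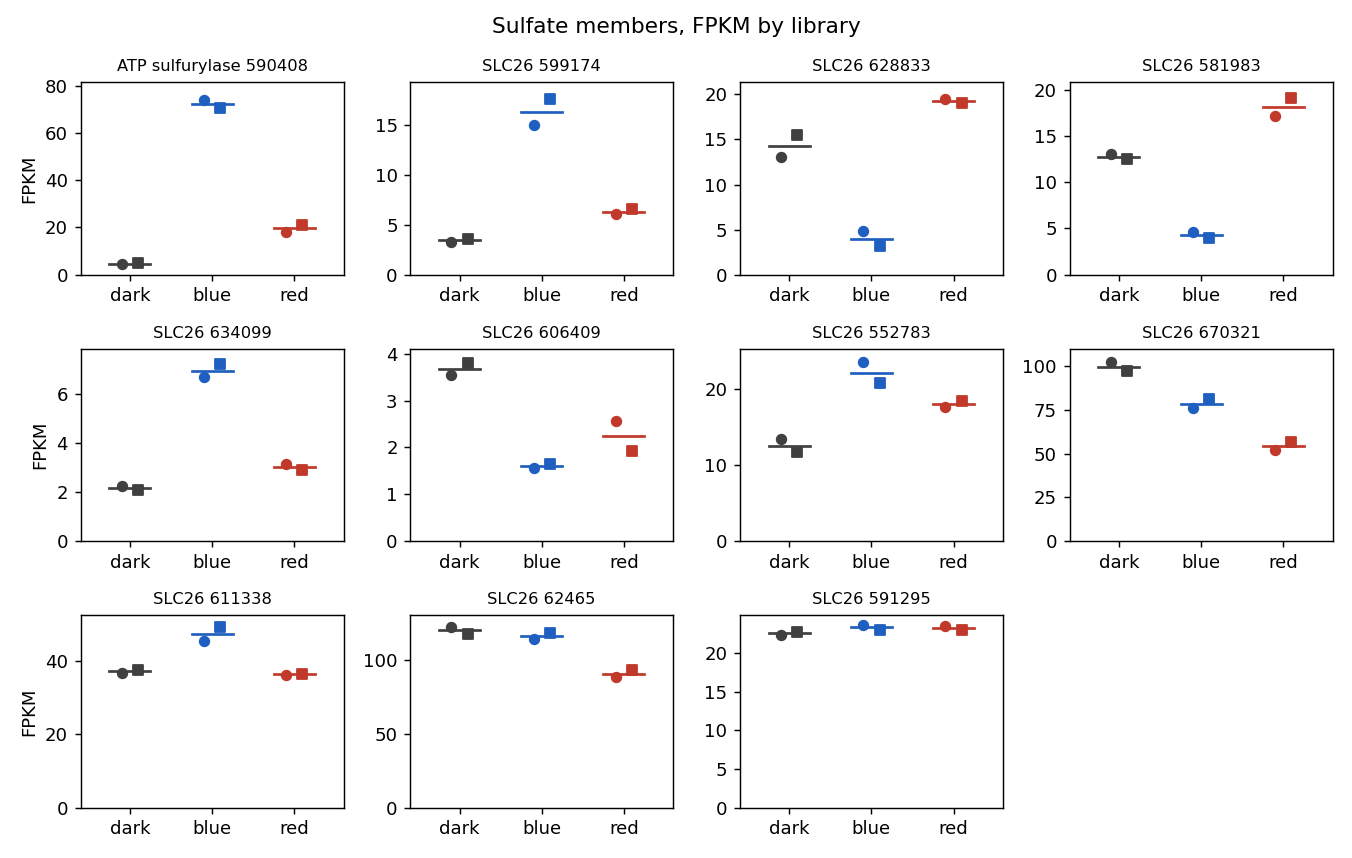
FPKM of ATP sulfurylase and the 10 SLC26 transporters in each library (linear axes from 0, circles replicate 1, squares replicate 2, lines group means). ATP sulfurylase, 599174 and 634099 are highest in blue libraries, whereas 581983 and 628833 are lowest there and highest in red libraries.

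Phosphate transport held the widest difference between the pulses among ion members. The 4 transporters of the major facilitator superfamily import inorganic phosphate, and 3 of them rose after blue light (75%, beside 39.9% of all tested models). The fourth, 556947 (overlapping), was not called at −0.09 (with median centring it fell). Phosphate transporter 630024 (scaffold 9, 673408 to 676190) was at 10.2 and 10.6 FPKM in dark, 61.0 and 78.0 FPKM in blue and 11.7 and 12.2 FPKM in red libraries. The blue libraries lay far above all others, and the dark and red libraries were next to each other without overlapping. The rise after blue light was 6.68-fold (log2 change 2.62, SE 0.12, adjusted p = 1.19e-07), the red change was 0.19 (adjusted p = 0.205), and blue exceeded red by 2.43 (adjusted p = 5.54e-07). The most abundant of the 4, 631304, was at 112 and 106 FPKM in dark, 194 and 237 FPKM in blue and 108 and 121 FPKM in red libraries. Its dark and red libraries overlapped, and both blue libraries lay above them. It rose after blue light (log2 change 0.97, SE 0.11, adjusted p = 3.22e-05), the red change of 0.07 was not called, and blue exceeded red by 0.90 (adjusted p = 0.000148). Transporter 672535 (overlapping) was at 6.999 and 7.40 FPKM in dark, 22.1 and 23.1 FPKM in blue and 11.5 and 11.2 FPKM in red libraries and rose after both pulses (1.53 and 0.59), further after blue light (difference 0.93). The direct test placed 5 of the 7 phosphate members higher in blue than in red libraries and none lower (71.4% and 0%, beside 27% and 23.7% of all tested models). The VTC protein 586562 lost its call under each other scaling. Pho88 (609282) was among the 5 at 0.56, with the blue and red libraries all below the dark ones.

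The other phosphate members moved little or downward. Pho88, an endoplasmic reticulum membrane protein in yeast (609282), was at 74.5 and 73.9 FPKM in dark, 57.4 and 68.2 FPKM in blue and 43.1 and 41.4 FPKM in red libraries and fell after red light (log2 change −0.80, SE 0.10, adjusted p = 9.93e-05). Its blue change of −0.24 turned to 0.01 on TPM, and its call was lost there, with no filter or no trend, and without any 1 library but blue replicate 2. The sodium/phosphate symporter 626005 fell after blue and red light (−0.40 and −0.45), calls that were both lost on TPM. The VTC protein 586562 (overlapping), whose yeast relatives make polyphosphate in the vacuole, changed by 0.38 after blue light, not called with median centring.

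Of the 2 ammonium transporters, which take up reduced nitrogen, 1 rose after both pulses. Transporter 557399 was at 50.9 and 50.0 FPKM in dark, 124 and 130.1 FPKM in blue and 131 and 154 FPKM in red libraries, with every pulsed library above both dark libraries. It rose 2.52-fold after blue light (log2 change 1.31, SE 0.10, adjusted p = 1.76e-06) and 2.82-fold after red light (log2 change 1.47, SE 0.10, adjusted p = 2.74e-06), and the difference between pulses did not pass (−0.16, adjusted p = 0.191). The more abundant transporter 588441 was at 152 and 152 FPKM in dark, 208 and 188 FPKM in blue and 160.4 and 199 FPKM in red libraries. Its blue rise of 0.38 was lost with median centring and without either dark library or blue replicate 1, and its red change of 0.23 was not called (adjusted p = 0.0936).

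Bicarbonate transporters of the SLC4 family rose after both pulses and were higher in blue than in red libraries. Transporter 576819 (overlapping) was at 7.03 and 6.64 FPKM in dark, 34.5 and 34.6 FPKM in blue and 12.9 and 13.8 FPKM in red libraries, a rise of 2.18 on the log2 scale after blue light (SE 0.09, adjusted p = 8.33e-08) and of 0.87 after red light, with a direct difference of 1.31 (adjusted p = 5.57e-06). Transporter 628873 (overlapping), already at 53.3 and 49.3 FPKM in dark, 92.8 and 89.4 FPKM in blue and 70.9 and 72.5 FPKM in red libraries, rose by 0.82 and 0.48, with a direct difference of 0.34. For both models dark was lowest, red intermediate and blue highest, with no overlap between groups.

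Chloride channels of the CLC family, which includes channels and chloride/proton exchangers, were divided. Channel 623874, related to CLC-7, was at 15.6 and 13.7 FPKM in dark, 5.30 and 7.80 FPKM in blue and 5.64 and 7.83 FPKM in red libraries, so that every pulsed library lay below the dark ones. The log2 changes were −1.07 and −1.02 (adjusted p = 0.000563 and 0.00108), and the comparison of blue with red did not pass (difference −0.04, adjusted p = 0.871). A second CLC-7 relative, 585282, fell after blue light (−0.60); its red change of −0.39 was not called on TPM or without any 1 of the dark libraries and red replicate 2. The CLC-3 relative 645947 (overlapping) was at 4.70 and 4.32 FPKM in dark, 4.67 and 4.44 FPKM in blue and 6.93 and 7.505 FPKM in red libraries; it rose after red light (log2 change 0.58, SE 0.11, adjusted p = 0.00189) and was lower in blue than in red libraries (log2 difference −0.56, SE 0.11, adjusted p = 0.00302). The CLC-2 relatives 575838 and 549598 changed by 0.40 or less, and their blue calls were lost with quantile normalization and median centring, where 549598 (overlapping) changed sign, to −0.05 and −0.03; its blue call was also lost without any 1 of the 6 libraries. The chloride current inducer ICln (575318, overlapping), in animals a protein of splicing complex assembly, fell after both pulses (−0.55 and −0.89); its blue call was lost on TPM. The mitochondrial porin 589307 (overlapping) had a blue change of −0.32, not called on TPM or without dark replicate 2.

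Models that KOG matches to potassium channels held both the second largest rise among ion members and, after blue light, the largest fall. Models 526942 (scaffold 8, 505510 to 506124) and 585970 (scaffold 8, 499761 to 504240) are matched to the ERG potassium channel group. The aureochromes carry this same KOG description, and whether 526942 and 585970 are channels was not tested. The models 526942 and 585970 lie on the same strand with 1269 bases and no other model between them. The first, a short model with ankyrin repeats, was at 4.44 and 3.29 FPKM in dark, 46.9 and 41.5 FPKM in blue and 20.5 and 22.6 FPKM in red libraries. The second was at 3.94 and 3.60 FPKM in dark, 31.1 and 33.8 FPKM in blue and 14.4 and 16.1 FPKM in red libraries. In both the order was dark, red, blue without overlap. After blue light they rose 11.4-fold and 8.62-fold (log2 change 3.22, SE 0.13, adjusted p = 5.98e-08, and log2 change 2.81, SE 0.11, adjusted p = 3.72e-08), and after red light by 2.22 and 1.77 on the log2 scale. The blue excess over red was 1.00 and 1.04 (adjusted p = 0.000233 and 4.67e-05). Whether these models are pieces of 1 transcript was not tested.

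By their KOG descriptions 7 potassium and calcium channel models are named voltage-gated. Of these, 5 fell after blue light (71.4%, beside 36.2% of all tested models) and none rose (0%, beside 39.9%). The red pulse gave 4 falls (57.1%, beside 29.5%) and no rise (0%, beside 33.7%). On TPM 2 rose after blue and 1 after red light beside the same numbers of falls. There the median of all models was 0.27 after blue and 0.36 after red light. The name leaves out the models matched to the ERG, Slowpoke and inward rectifier groups. Among all 12 models matched to potassium or calcium channels, 3 rose and 6 fell after blue light (25% and 50%). After red light 3 of the 12 rose and 5 fell (25% and 41.7%). Potassium channel 580971, an overlapping model of the A-type group that gives brief outward currents in animals, was at 31.6 and 27.8 FPKM in dark, 7.47 and 6.22 FPKM in blue and 12.2 and 14.04 FPKM in red libraries. The mean blue level was 0.231 times the dark mean (log2 change −1.97, SE 0.12, adjusted p = 7.2e-07), and the log2 change after red light was −1.12. The more abundant A-type channel 591112 was at 125 and 125 FPKM in dark, 59.5 and 60.7 FPKM in blue and 81.9 and 84.6 FPKM in red libraries, with log2 changes of −1.05 and −0.58. Both were lower in blue than in red libraries (differences −0.85 and −0.46). Channels 613373 and 598689, both overlapping, were not called in any comparison.

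Calcium channels of the voltage-gated type admit calcium when the membrane depolarises. Channel 596728 was at 7.28 and 5.18 FPKM in dark, 2.12 and 2.03 FPKM in blue and 2.37 and 2.88 FPKM in red libraries and fell after blue and red light (−1.22 and −0.98, adjusted p = 0.0001 and 0.000642). Channel 669320 (overlapping) was at 24.4 and 22.6 FPKM in dark, 12.3 and 11.5 FPKM in blue and 13.0 and 12.7 FPKM in red libraries, with log2 changes of −0.92 and −0.82. In both models all pulsed libraries lay below all dark libraries, and the direct difference between pulses was not called (−0.23 and −0.10). The third, 673595, fell after blue light (−0.68) and was not called after red light (−0.26).

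Calcium-activated channels of the Slowpoke or BK type open on calcium and voltage together. Channel 599116 (overlapping) was at 8.18 and 7.44 FPKM in dark, 1.39 and 1.29 FPKM in blue and 3.56 and 3.11 FPKM in red libraries, lowest in blue and highest in dark libraries. Its changes were −1.91 and −1.02 (adjusted p = 1.05e-06 and 0.000115), with blue below red (difference −0.89, adjusted p = 0.0004). The other Slowpoke relative, 594767, changed by 0.37 after blue light, not called with median centring. The TPR protein 580855 (overlapping), described as a nuclear regulator of potassium uptake, rose after blue light (0.84, adjusted p = 8.99e-05). The inward rectifier 668130 (overlapping) was not called after blue light (−0.07); its red rise of 0.46 was lost with quantile normalization, median centring or no filter and without dark replicate 1 or red replicate 2.

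**Figure D3:**
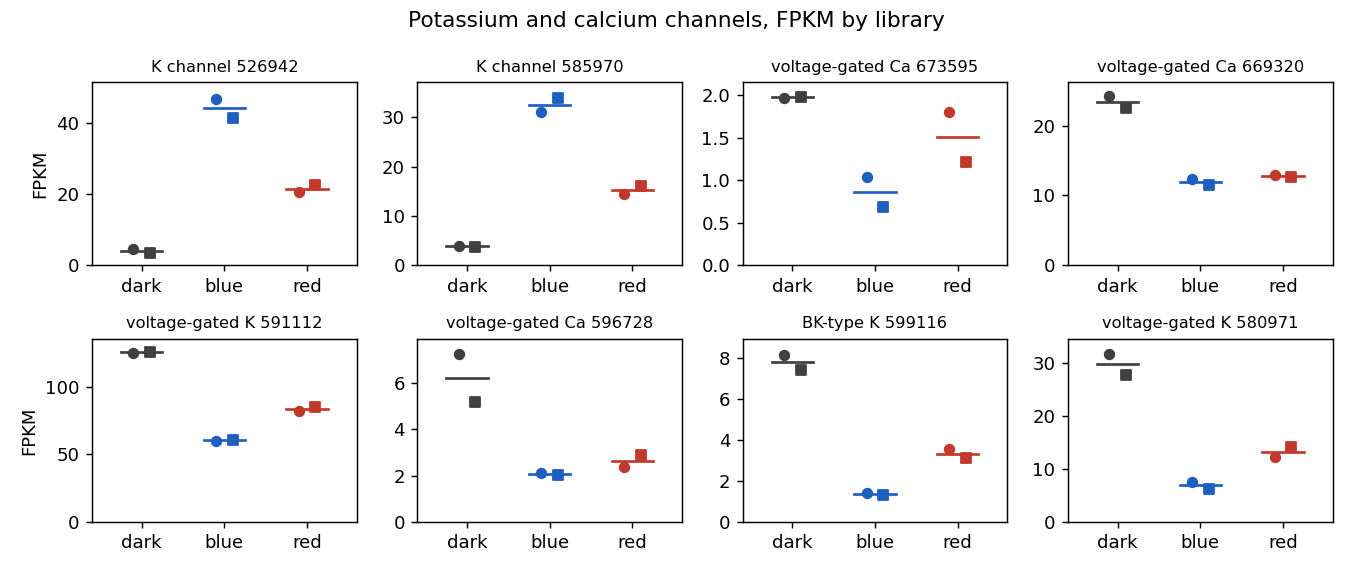
FPKM in each library of the 8 models matched to potassium and calcium channels with the largest changes after blue light, either way (linear axes from 0, circles replicate 1, squares replicate 2, lines group means). The neighbouring models 585970 and 526942 are lowest in dark and highest in blue libraries. In the voltage-gated and BK-type models shown the dark mean is the highest. Among those not shown, the dark mean is the lowest in BK-type 594767 (53.7 FPKM) and voltage-gated 613373 (6.55 FPKM).

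Potassium/proton antiporters exchange potassium for protons, in plants across the membranes of plastids and endosomes. Antiporter 589261 (overlapping) was at 98.1 and 95.8 FPKM in dark, 211 and 211 FPKM in blue and 109 and 123 FPKM in red libraries and rose after blue light (log2 change 1.11, SE 0.09, adjusted p = 2.47e-06). Its red libraries lay just above the dark ones, a rise of 0.26 that was not called with median centring or without any 1 of dark replicates 1 and 2 and red replicate 2. Antiporter 606990 (overlapping) was at 9.45 and 10.2 FPKM in dark, 3.83 and 3.40 FPKM in blue and 4.56 and 5.67 FPKM in red libraries, a log2 change of −1.23 after blue and −0.83 after red light. Antiporter 584653 (overlapping) rose by 0.88 and 0.55, and 221067 rose after red light (0.48) and was not called after blue light (0.04), with blue below red (difference −0.45, adjusted p = 0.00319).

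The calcium pumps of the P-type family clear calcium from the cytosol, and their 9 models were mixed. After blue light 3 rose and 3 fell (33.3% each, beside 39.9% and 36.2% of all tested models), on TPM 5 and 1 and with median centring 3 and 4. After red light 5 rose and 2 fell (55.6% and 22.2%, beside 33.7% and 29.5%), with median centring 3 and 3. Pump 674574, whose product name is potassium and sodium efflux ATPase, was at 19.9 and 19.0 FPKM in dark, 41.6 and 37.6 FPKM in blue and 39.9 and 43.2 FPKM in red libraries, with each pulsed library above both dark libraries. The rises were 0.99 and 1.06 (adjusted p = 9.06e-06 and 1.45e-05), and the direct comparison of the pulses did not pass (difference −0.07, adjusted p = 0.562). Pumps 592798 (overlapping) and 555670 rose after both pulses, by 0.96 and 0.79 after blue and 0.67 and 0.54 after red light.

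Other calcium pumps separated the pulses. Pump 622362 was at 122 and 121 FPKM in dark, 120.5 and 124 FPKM in blue and 73.7 and 78.9 FPKM in red libraries; the blue and dark libraries overlapped and the red libraries lay below them, with a fall after red light (log2 change −0.66, adjusted p = 8.63e-05) and blue above red by 0.67 (adjusted p = 0.000114). Pump 595204 was at 115 and 124 FPKM in dark, 81.0 and 102 FPKM in blue and 132 and 139.9 FPKM in red libraries, with the blue libraries lowest and the red ones highest and with blue below red (difference −0.58, adjusted p = 0.00221); its blue change of −0.39 lost its call on TPM and without dark replicate 2. Pump 594037 fell after blue light (−0.78), as did 577851 (−0.49, not called on TPM). The 2 remaining pumps, 667632 and 90876, were called after red light alone, at 0.28 and 0.43, and both calls were lost with median centring and without any 1 of the dark or red libraries. Like 674574, 90876 has the product name potassium and sodium efflux ATPase. Among the exchangers that drive calcium out against sodium or protons, the proton antiporter 623014 was at 16.1 and 15.1 FPKM in dark, 17.4 and 19.1 FPKM in blue and 25.9 and 25.6 FPKM in red libraries and rose after red light (log2 change 0.69, SE 0.09, adjusted p = 0.000193), with blue below red (difference −0.48, adjusted p = 0.00248). The calls of the other 2 exchangers, 594488 and 624848, were at most 0.37 in size and lost under other scalings and without single libraries.

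Proton pumps of the plasma membrane energise much of the transport above, and their 3 models lie in a row on scaffold 46 with no model between neighbours. The first, 318067 (138160 to 141358), was at 345 and 353 FPKM in dark, 867 and 989.5 FPKM in blue and 314 and 383 FPKM in red libraries. Both blue libraries lay far above the rest, while the dark libraries lay within the range of the red ones. It rose 2.66-fold after blue light (log2 change 1.40, SE 0.11, adjusted p = 3.73e-06), the red change was −0.01 (adjusted p = 0.952), and blue exceeded red by 1.41 (adjusted p = 1.14e-05). Its neighbour 318190 (overlapping), 2667 bases away on the opposite strand, was at 415 and 415 FPKM in dark, 575 and 611 FPKM in blue and 474 and 644 FPKM in red libraries; its rises of 0.51 and 0.41 were both lost with median centring, the second also with no filter and without either dark library or red replicate 2. The third, 533791, was scarce at 3.15 and 2.76 FPKM in dark, 2.16 and 2.80 FPKM in blue and 1.51 and 1.57 FPKM in red libraries and fell after red light (−0.64).

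Sodium/proton exchangers, which couple sodium to proton movement and adjust internal pH, numbered 7. After blue light 3 rose and 2 fell (42.9% and 28.6%, beside 39.9% and 36.2% of all tested models). Their median change of 0.02 turned sign under other scalings (−0.21 after quantile normalization, −0.24 after median centring). After red light 4 rose and none fell (57.1% and 0%, beside 33.7% and 29.5%). Exchanger 529995 was at 8.15 and 8.59 FPKM in dark, 25.8 and 30.1 FPKM in blue and 11.6 and 12.2 FPKM in red libraries, highest in blue, then red, then dark libraries. The blue rise was 3.34-fold (log2 change 1.62, SE 0.11, adjusted p = 9.89e-07), the red change was 0.47, and blue exceeded red by 1.16 (adjusted p = 2.59e-05). Exchanger 674133 was at 3.26 and 3.16 FPKM in dark, 10.6 and 8.58 FPKM in blue and 6.49 and 5.40 FPKM in red libraries and showed the same order, with changes of 1.33 and 0.72. Exchanger 553171 was at 2.68 and 2.38 FPKM in dark, 1.29 and 1.37 FPKM in blue and 2.84 and 2.30 FPKM in red libraries: it fell after blue light (−0.60), was not called after red light (0.01) and was lower in blue than in red libraries (−0.61, adjusted p = 0.00598). Exchanger 590903 (overlapping) rose after red light (0.60), and its blue rise of 0.50 was lost with median centring. Model 650628 was lower in blue than in red libraries (−0.37, adjusted p = 0.0059, limma). The blue change of 650628 against dark, −0.24, turned to 0.01 on TPM and lost its call there. Exchanger 673965 had a red rise of 0.35 that was lost with other scalings, no filter, and without any 1 of the dark or red libraries, and 514027 was not called.

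Sodium pumps and sodium-driven carriers followed. The model matched to the sodium/potassium ATPase alpha subunit, 556828, was at 58.4 and 55.7 FPKM in dark, 55.3 and 52.4 FPKM in blue and 78.0 and 79.5 FPKM in red libraries, so that the red libraries lay above both other groups. It rose after red light (log2 change 0.46, SE 0.08, adjusted p = 0.000857), was not called after blue light (−0.08, adjusted p = 0.37) and was lower in blue than in red libraries (log2 difference −0.54, SE 0.08, adjusted p = 0.000483). The second such model, 560425, was not called in any comparison. A carrier of the sodium/bile acid symporter family, 588731 (overlapping), a family whose plant members move organic acids into plastids, was at 91.0 and 96.3 FPKM in dark, 229 and 230.3 FPKM in blue and 160.3 and 189 FPKM in red libraries and rose by 1.29 and 0.89 (adjusted p = 2.1e-06 and 4.91e-05). The other, 526063 (overlapping), had a red rise of 0.41, not called with median centring or without red replicate 1.

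The ZIP family carries zinc and iron into the cytosol. Of its 6 models 4 rose and 1 fell after blue light (66.7% and 16.7%, beside 39.9% and 36.2% of all tested models), on median centring 3 and 2. After red light 3 rose and 1 fell (50% and 16.7%, beside 33.7% and 29.5%), on median centring 3 and 3. ZIP transporter 591919 (overlapping) was at 45.0 and 42.2 FPKM in dark, 143 and 150.5 FPKM in blue and 55.3 and 60.1 FPKM in red libraries, with the dark and red libraries close together and the blue ones far above. The rise after blue light was 3.37-fold (log2 change 1.73, SE 0.08, adjusted p = 1.75e-07), that after red light 0.39, and the difference between pulses 1.34 (adjusted p = 2.39e-06). ZIP transporter 588847 was at 3.33 and 2.596 FPKM in dark, 7.86 and 8.04 FPKM in blue and 5.69 and 4.78 FPKM in red libraries and rose by 1.18 and 0.66. ZIP transporter 593696 (overlapping) rose by 0.62 and 0.58, 637164 fell after blue light (−0.67), and 525561 was higher in blue than in red libraries (0.54, adjusted p = 0.0013). The red fall of 637164, −0.30, turned to 0.02 on TPM and lost its call there. The most abundant ZIP model, 596483 (overlapping), ranged from 148 to 168 FPKM over the 6 libraries and was not called.

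NRAMP transporters bring manganese and iron into the cytosol. Transporter 524416 was at 29.0 and 30.2 FPKM in dark, 76.5 and 69.9 FPKM in blue and 34.6 and 41.1 FPKM in red libraries and rose after blue light (log2 change 1.28, SE 0.10, adjusted p = 3.3e-06), with blue above red by 0.94 (adjusted p = 7.3e-05). Its red rise of 0.34 was lost with quantile normalization and median centring and without either dark library or red replicate 2. Transporter 669356 rose after red light by 0.74 (adjusted p = 0.00127); its blue rise of 0.47 was lost with median centring and without dark replicate 1 or blue replicate 1. The ferric reductase 674498 (overlapping), an enzyme type that makes iron available for uptake, rose by 0.84 and 0.44.

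The other metal transporters and metal-binding proteins included members that fell and members that rose. The most abundant of them, a cation diffusion facilitator related to the mitochondrial iron transporter MMT1 of yeast (577472), was at 252 and 254 FPKM in dark, 115 and 125 FPKM in blue and 159.9 and 172 FPKM in red libraries, in the order dark, red, blue from high to low. Its log2 changes were −1.07 and −0.61 (adjusted p = 2.94e-06 and 0.000213), with blue below red (difference −0.46). HMT1 (632260), an ABC transporter that in fission yeast loads phytochelatin-bound metals into the vacuole, was at 48.7 and 49.1 FPKM in dark, 37.9 and 36.9 FPKM in blue and 24.1 and 24.98 FPKM in red libraries; it fell after red light (log2 change −0.97, SE 0.08, adjusted p = 1.19e-05), and its blue change of −0.38 was not called on TPM. The copper homeostasis protein CutC (602995, overlapping) fell after both pulses (−0.79 and −0.70). Phytochelatin synthase, which makes the metal-binding peptides, has 2 models: 571914 fell after red light (−0.55), and 594144 rose by 0.44 and 0.45. Both calls were lost with median centring, the blue one also without any 1 of dark replicate 2 and the blue libraries, and the red one without any 1 of the dark libraries and red replicate 1. The zinc transporter 630191 (overlapping) rose by 0.66 and 0.52, while 556631 (overlapping) was not called and the calls of ferroportin (584140, −0.35 after red light) and of 672670 (−0.54 after blue light) were lost on TPM. That of ferroportin was also lost with no filter and without any 1 of the dark or red libraries, and that of 672670 without dark replicate 2 or blue replicate 2. The copper transporter of the Ctr family (672241, overlapping) was not called in any comparison.

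A row of 3 cation ATPases on scaffold 29 fell together. The copper exporting ATPase 532996 (297636 to 298059) was at 228 and 287 FPKM in dark, 90.9 and 114 FPKM in blue and 138 and 108 FPKM in red libraries. Model 226534, which ends 5 bases before it on the same strand, was at 42.2 and 50.9 FPKM in dark, 14.4 and 22.2 FPKM in blue and 21.6 and 20.4 FPKM in red libraries, and 546762 (overlapping), 1158 bases beyond it and also on that strand, was at 58.1 and 65.9 FPKM in dark, 28.3 and 27.4 FPKM in blue and 34.8 and 35.1 FPKM in red libraries. In each of the 3 models all pulsed libraries lay below both dark libraries. The changes after blue light were −1.32, −1.32 and −1.12 in their order along the scaffold, and those after red light −1.11, −1.06 and −0.81 (adjusted p = 4.42e-05 and 0.000314 for the middle model). Blue was below red in 546762 (−0.32), a call lost without either red library, and not called in the other 2. Whether these models are pieces of 1 gene was not tested.

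Another group of P-type ATPases lies on scaffold 15. Models 595191 and 595195, both without a named ion, overlap each other by 67 bases, and the calcium pump 595204 follows at 670 bases on the opposite strand. The first was at 14.4 and 13.4 FPKM in dark, 10.3 and 8.19 FPKM in blue and 13.8 and 13.5 FPKM in red libraries, the second at 17.8 and 18.4 FPKM in dark, 9.46 and 11.3 FPKM in blue and 15.8 and 15.7 FPKM in red libraries. They were lower in blue than in red libraries (differences −0.52 and −0.57, adjusted p = 0.00575 and 0.00196), as 595204 was. Neither was called after red light (−0.02 and −0.19). Of the other P-type ATPases without a named ion, 541521 (overlapping) rose by 0.81 and 0.73, 591827 (overlapping) rose by 0.66 and 0.64, and 38418 (overlapping) fell (−0.70 and −0.88). Models 668937 (overlapping) and 527081 had small changes (−0.36 after blue and 0.25 after red light) whose calls were lost under other scalings and without single libraries, and 633163 (overlapping) was not called.

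Iron cofactor assembly included the largest fall of any member after red light. ISA1, a carrier that hands iron-sulfur clusters to other proteins, has 2 models. The abundant 579568 (overlapping) was at 376 and 385 FPKM in dark, 118 and 119 FPKM in blue and 118 and 117 FPKM in red libraries; the blue and red libraries overlapped, far below the dark ones. The changes were −1.68 and −1.69 (adjusted p = 1.04e-07 and 4.18e-07) with a difference of 0.01 between pulses (adjusted p = 0.918). The other ISA1 model, 596574, was at 118 and 115 FPKM in dark, 201 and 215 FPKM in blue and 172 and 178 FPKM in red libraries and rose after both pulses (0.83 and 0.58). Heme oxygenase, which opens heme and releases its iron, was represented by 608788, at 10.5 and 12.8 FPKM in dark, 15.5 and 14.4 FPKM in blue and 19.5 and 21.3 FPKM in red libraries; it rose after red light (log2 change 0.76, SE 0.12, adjusted p = 0.000401), and its blue rise of 0.34 was lost with quantile normalization, median centring or no filter and without dark replicate 1 or blue replicate 1. The second heme oxygenase, 602210, and frataxin, an iron protein of mitochondrial cluster assembly (580905), were not called in any comparison.

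The ArsA family, named for an arsenite pump of bacteria and related to the Get3 protein that targets membrane proteins in eukaryotes, had 2 models that moved in opposite directions. Model 574544 (overlapping) was at 162 and 159 FPKM in dark, 72.3 and 69.0 FPKM in blue and 57.0 and 60.3 FPKM in red libraries, with the red libraries lowest and the dark highest. The log2 changes were −1.17 after blue and −1.44 after red light (adjusted p = 1.13e-06 and 1.25e-06). Model 611113 was at 55.5 and 52.1 FPKM in dark, 88.9 and 83.0 FPKM in blue and 77.7 and 69.6 FPKM in red libraries and rose by 0.66 and 0.44. Of the 2 magnesium transporters of the CorA family, 668077 changed by 0.45 after blue light, a call lost with quantile normalization and median centring, and 599601 (overlapping) was not called.

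**Figure D4:**
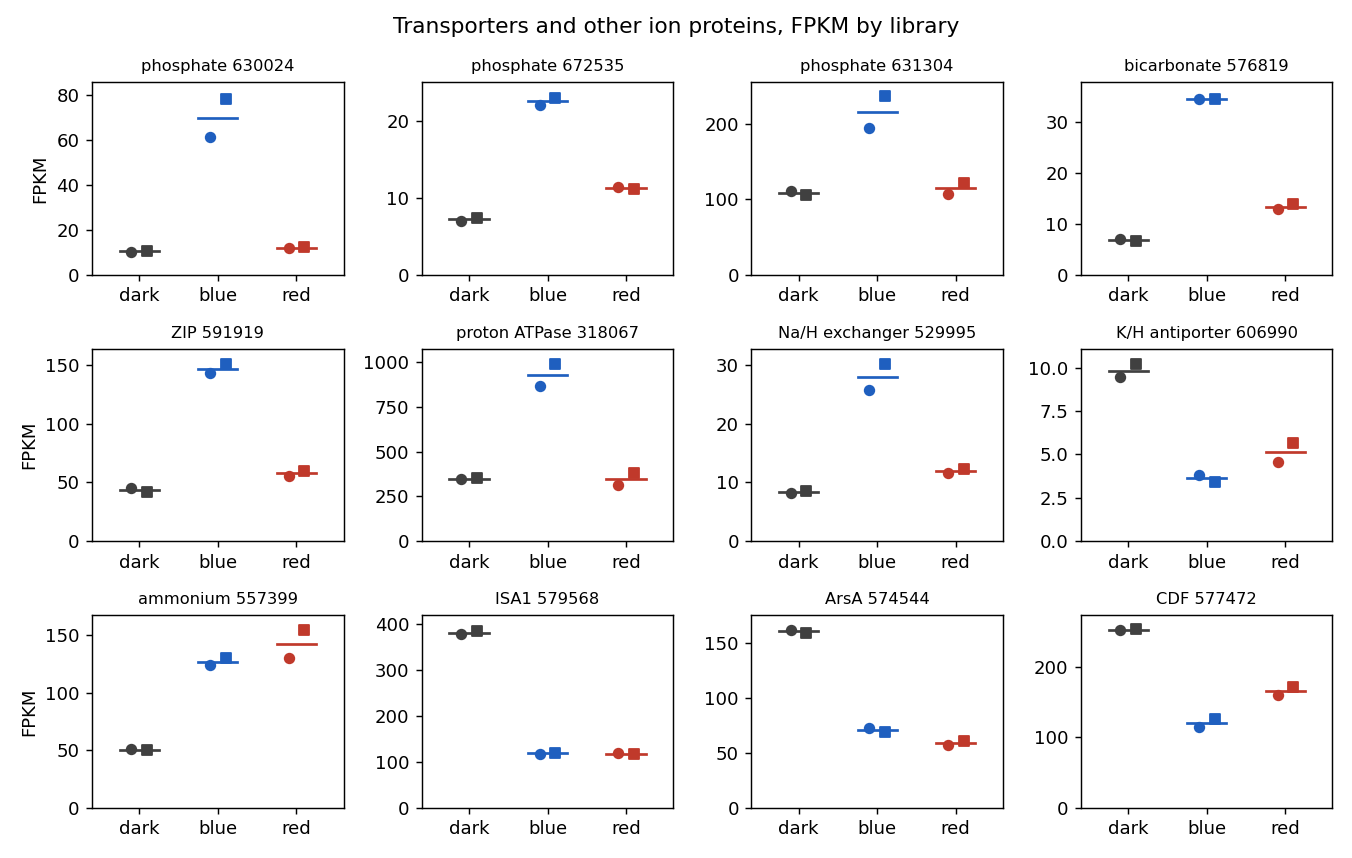
FPKM of 12 members in each library (linear axes from 0, circles replicate 1, squares replicate 2, lines group means). Phosphate transporter 630024, proton ATPase 318067 and ZIP transporter 591919 are highest in blue libraries, ammonium transporter 557399 is high in blue and red libraries, and ISA1, ArsA and the cation diffusion facilitator (CDF) are highest in dark libraries.

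The direct comparison of the pulses ranked these differences. Among ion members, those higher in blue than in red libraries by the widest margins were phosphate transporter 630024 (2.43), ATP sulfurylase (1.84), proton ATPase 318067 (1.41), ZIP transporter 591919 (1.34), bicarbonate transporter 576819 (1.31) and SLC26 transporter 599174 (1.24). Those lower in blue by the widest margins were the SLC26 pair 628833 (−2.04) and 581983 (−1.85), followed by potassium channels 599116 (−0.89) and 580971 (−0.85). Differences of at least 2-fold on the log2(FPKM + 1) scale were called for 10 members higher in blue, 1 of them an aureochrome. On this scale 2 were lower in blue, the SLC26 pair. These were 7.94% and 1.59% of the members, beside 5.81% and 3.86% of all tested models. A ratio of group means can pass 2-fold where this measure does not. The red mean was 2.49 times the blue mean in 599116, and the blue mean 2.29 times the red mean in 634099.

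**Figure D5:**
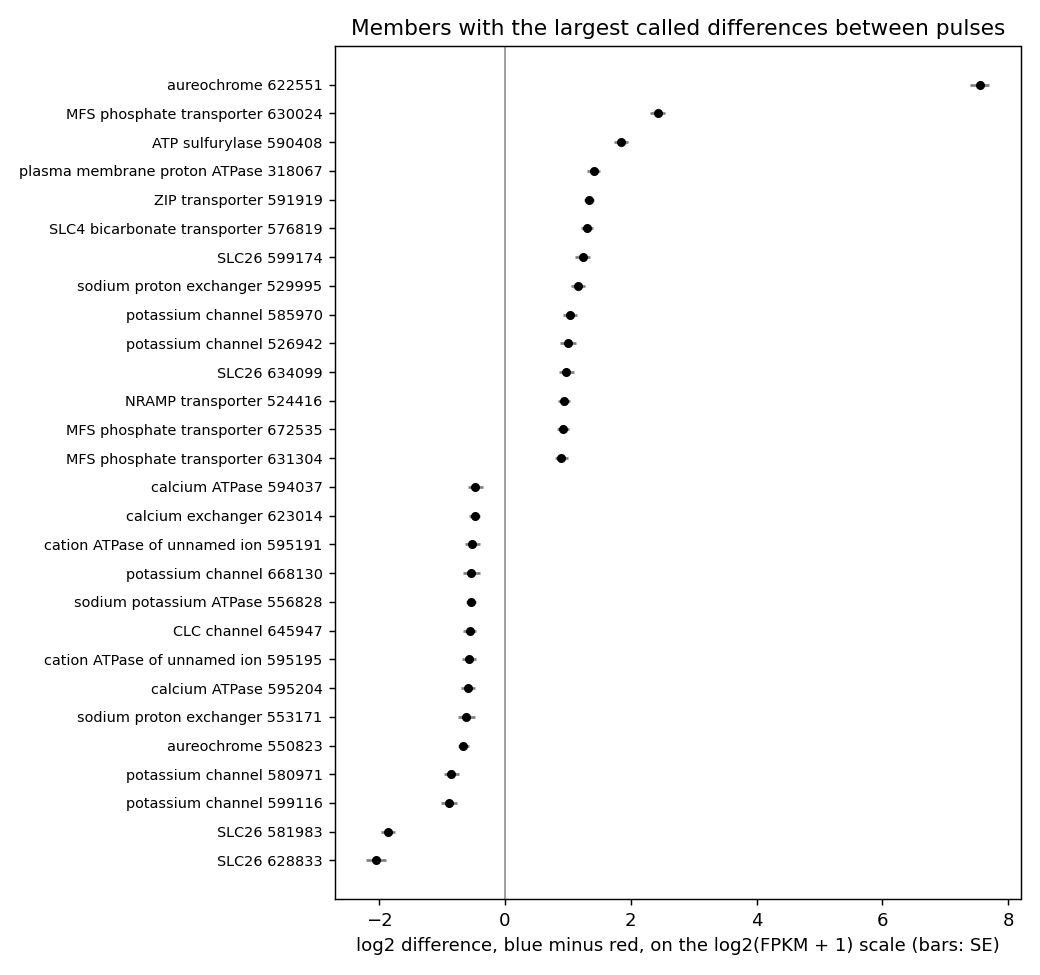
Log2 difference between blue and red libraries, with its SE, for the 14 members with the largest called excess in blue and the 14 with the largest called deficit. Aureochrome 622551 stands at 7.55, phosphate transporter 630024 at 2.43 and the SLC26 pair 581983 and 628833 at −1.85 and −2.04.

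The 15 members that are other kinds of protein spanned a wide range. Aureochrome 4 (622551), a photoreceptor and transcription factor, was at 4.81 and 5.13 FPKM in dark, 1298 and 1669 FPKM in blue and 5.80 and 8.03 FPKM in red libraries, and aureochromes 1 (550823) and 3 (582424, overlapping) fell after blue light (−1.56 and −0.79) and after red light (−0.90 and −0.53, the second not called with quantile normalization). A glutathione transferase-like CLIC model (587809, overlapping) was at 698 and 705 FPKM in dark, 212 and 253 FPKM in blue and 316 and 290.3 FPKM in red libraries and fell after both pulses (−1.59 and −1.21), while a related model, 576258 (overlapping), rose (1.38 and 0.64). The phosphatase 571734, which KOG names for its action on nitrophenyl phosphate, was at 42.7 and 45.0 FPKM in dark, 85.6 and 97.5 FPKM in blue and 103 and 111 FPKM in red libraries and rose after both pulses (1.04 and 1.27). The remaining 9 were 3 cysteine-rich CRC domain models, 2 GOT1 vesicle proteins, another such phosphatase (670267), another CLIC model (574992), an acetyl-CoA transporter and a nitrogen permease regulator, with changes between −1.05 and 0.90 after blue light. Without these 15 members, a narrowing made after the data were seen, 46 rose and 37 fell after blue light and 49 rose and 30 fell after red light.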

How the data were processed

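Polyadenylated RNA was sequenced as strand-specific libraries, per the labels' protocols. The submitters' processing notes list TopHat, Cufflinks, Cuffnorm, Cuffdiff and FastQC, with neither role nor version; settings and filters are not stated there. Per the file headers, the authors gave FPKM for each library and TPM beside it, which equals FPKM times 1 constant per library. Per the file headers, they also deposited log2 fold changes, p-values and q-values of each pulse against dark. By q under 0.05 in the authors' deposited table, 83 members passed in blue against dark, all of them also called here, and 72 in red against dark, 69 of them also called here. Coordinates are scaffold positions of the Nanoce1779_2 annotation as the deposited table gives them, and models are named by description and protein identifier.

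Models averaging 1 FPKM or more over the libraries, 9087 in all, were tested on log2(FPKM + 1), a scale that makes changes of low models look smaller. A linear model of all 6 libraries was fitted with limma 3.58.1 in R 4.3.3 (variance trend, 3 residual degrees of freedom, two-sided, Benjamini-Hochberg adjusted p under 0.05). The procedure was tested on simulated data. Each pulse was set against dark, and blue against red. Depth is unknown beyond the steps between low values: 747 of 1442 low models gave whole fragments within 0.03 in every library, so no count test was run. Replicate numbers do not pair the samples.

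The members and lists were chosen with earlier results of these data known. The text names the models with the highest level and the largest called rise and fall of each ion in each comparison, and the 10 largest rises and falls overall. Other named models complete their families and were chosen after their values were seen. Word patterns for ions misplaced some models, so ions and families come from a table made by hand from the descriptions, after values were seen. Alternatives were TPM, quantile normalization, median centring, pseudocounts of 0.1 and 5, other filters, no trend, a replicate block, only models without overlap, and leaving out each library.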

Additional observations from a re-analysis of the deposited data

Results flagged for a closer look

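The SLC26 transporters 581983 and 628833 were called in opposite directions by the 2 pulses, lower than dark after blue light and higher than dark after red light. The direct difference between blue and red was −1.85 for 581983 (adjusted p = 1.62e-06, limma) and −2.04 for 628833 (adjusted p = 8.66e-06, limma). In each model both blue libraries lay below both dark libraries and both red libraries above them. The models are neighbours that overlap by 19 bases on 1 strand, so they are not independent of each other, and how the reads of the overlap were assigned was not tested. The red rise of 581983 was not called with quantile normalization (0.25, adjusted p = 0.0645). The red rise of 628833 was 0.41 and was lost with quantile normalization (0.21, adjusted p = 0.255), median centring (0.25, adjusted p = 0.201), a pseudocount of 0.1 (adjusted p = 0.0632), no filter (adjusted p = 0.138), no trend (adjusted p = 0.0506), and without dark replicate 1 (0.30, adjusted p = 0.219). Leaving out either red library also ended the call, at adjusted p = 0.165 for the first and 0.136 for the second. The opposite direction of 628833 after red light therefore rests on a call that depends on these choices, while the blue falls of both were called under every alternative run on them.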

How the results depend on the processing

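Of 251 member calls over the 3 comparisons, 168 held under every alternative run on them, and no call turned into a call of the opposite direction. The 85 named changes were picked for their size among the called changes of these same data. That most of them kept their calls follows largely from this choice and is no measure of steadiness. On TPM 82 of them kept their call, under quantile normalization 83 and under median centring 83. On TPM the lower members in blue against dark numbered 28 in place of 43. Among the 71 members that overlap no other model, 29 were higher and 23 lower in blue against dark, 28 and 23 in red against dark, and 24 and 14 in blue against red, counts that are smaller because fewer members are counted. Leaving out 1 library at a time gave 47 to 51 higher and 34 to 42 lower members in blue against dark, 40 to 56 and 29 to 37 in red against dark, and 31 to 38 and 19 to 27 in blue against red. A fit with the replicate number as a block gave 52 higher and 42 lower, 55 and 37, and 41 and 29 members; deviations of same-numbered libraries correlated at 0.0915 between dark and blue, −0.0818 between dark and red and 0.34 between blue and red, and the labels do not pair the samples. The titles carry a second number besides the replicate number, and in red replicate 1 it differs from that of dark and blue replicate 1, so the block rests on the replicate number alone. Without the 15 members of another kind, an alternative chosen after seeing the data, blue against red held 35 higher and 23 lower members. Small changes depend on the scaling, and models near 1 FPKM rest on few fragments, a median of 12.7 per kb of genomic span per FPKM in dark replicate 1.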

Other observations

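Words for ion transport in their descriptions found 17 models outside the class, among them sugar phosphate antiporters, predicted sugar transporters and GABA-B receptor relatives, so not all of them handle inorganic ions. Of the 15 tested, 6 rose and 6 fell after blue light, 40% each beside 39.9% and 36.2% of all tested models. After red light 5 rose and 2 fell (33.3% and 13.3%, beside 33.7% and 29.5%), with 12 and none on TPM. There the median of all models had moved to 0.36. A sodium/proton antiporter of the bacterial NhaA type (572703) was at 38.8 and 41.0 FPKM in dark, 20.9 and 18.3 FPKM in blue and 48.1 and 47.0 FPKM in red libraries, lowest in blue and highest in red (log2 difference −1.24, adjusted p = 6.99e-06, limma). Mechanosensitive channels, which open when a membrane is stretched, differed among themselves. Channel 653123 was at 27.7 and 26.6 FPKM in dark, 64.9 and 80.6 FPKM in blue and 45.3 and 52.2 FPKM in red libraries and rose after both pulses, whereas 567001 was at 9.52 and 8.29, 4.99 and 4.76, and 8.96 and 8.94 FPKM in the same order and fell after blue light alone among the 2 comparisons with dark.

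The vacuolar proton ATPase, a pump of many subunits that acidifies compartments, gave 14 models by its words, including an assembly protein and a mitochondrial subunit. After blue light 3 rose and 7 fell (21.4% and 50%, beside 39.9% and 36.2% of all tested models), with 5 and 4 on TPM. The red pulse gave 2 rises and 5 falls (14.3% and 35.7%, beside 33.7% and 29.5%), with 7 and 2 on TPM. On TPM the median of all models itself moved up, to 0.27 after blue and 0.36 after red light. The subunits of the vacuolar proton ATPase did not keep together. Subunit G (579105) was at 1102.4 and 1145.5 FPKM in dark, 382 and 464.5 FPKM in blue and 391.8 and 427 FPKM in red libraries, while subunit E (641907) was at 154 and 165 FPKM in dark, 353 and 354 FPKM in blue and 269 and 309.5 FPKM in red libraries. Of the class models left out by their words, the 4 superoxide dismutases included 2 that rose and 1 that fell after blue light and 1 and 3 after red light. The 2 carbonic anhydrases included 1 rise after each pulse, the 2 reductases of the nitrite or sulfite type rose after both, and catalase was not called.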
